A study of Mus musculus with 2 samples.

Results

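The 10 genes described here mark blood vessel endothelium or its barrier: *Pecam1*, *Flt1*, *Kdr*, *Tek*, *Emcn*, *Ptprb*, *Cldn5*, *Slco1a4*, *Mfsd2a* and *Abcb1a*. They were chosen by symbol, and each matched 1 of the 32286 features counted, of which 26032 had a unique molecular identifier (UMI, 1 captured RNA molecule) in at least 1 nucleus. SnRNA-Seq was performed on vagus nerve ganglia, where vagal sensory neurons sit among glia, fibroblasts and vessels. The female library came from 14 ganglia of 7 mice pooled together, and the male library from 16 ganglia of 8 mice pooled together. All mice were C57BL/6J with the genotype Rosa26-floxed-STOP-Cas9-eGFP, in which Cre allows eGFP and Cas9 to be made, and ate a standard chow diet. They were 8 to 9 weeks old when purchased, and every mouse, female and male, had received AAVrg-Cre, a retrograde virus that carries Cre, in the liver 4 weeks before collection, so that no uninjected group exists. With 1 library of each sex, sex and library cannot be told apart, so values carry counting errors and the sexes were compared without a test.

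Vessels inside nerves and ganglia are lined by endothelial cells that in places are sealed by tight junctions. Together with the perineurium, a sheath of flattened cells around the nerve, these vessels form the blood-nerve barrier. Sealed endothelium replaces free leakage with transporters and efflux pumps, whereas arteries and leaky capillaries carry fewer of them. Vascular endothelial growth factors (VEGFs) and angiopoietins, made largely by neighbouring cells, act on receptors that are restricted to endothelium in most tissues.

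The genes lie on 7 chromosomes of mm10, and no other counted gene overlaps them. *Flt1* (chr5:147561604-147726011), *Kdr* (chr5:75932827-75978458) and *Abcb1a* (chr5:8660077-8748575) share chromosome 5, and *Tek* (chr4:94739289-94874976) and *Mfsd2a* (chr4:122946850-122961188) share chromosome 4. The others are *Pecam1* (chr11:106654217-106750628), *Emcn* (chr3:137341067-137432185), *Ptprb* (chr10:116275523-116389535), *Cldn5* (chr16:18776847-18778262) and *Slco1a4* (chr6:141805440-141856199). UMIs of nuclei come from exons and introns alike. Below are the 250 bases before the transcription start of 4 of them, from RefSeq on GRCm38.p6 and written 5′ to 3′ on the strand of the gene. They were chosen because *Tek* on the one hand and *Flt1*, *Cldn5* and *Slco1a4* on the other moved in opposite directions between endothelial-like sub-clusters. Capitals mark GGAA or its reverse complement TTCC, the core of sites for ETS factors, a family active in endothelium.
*Tek*, chr4:94739039-94739288, plus strand: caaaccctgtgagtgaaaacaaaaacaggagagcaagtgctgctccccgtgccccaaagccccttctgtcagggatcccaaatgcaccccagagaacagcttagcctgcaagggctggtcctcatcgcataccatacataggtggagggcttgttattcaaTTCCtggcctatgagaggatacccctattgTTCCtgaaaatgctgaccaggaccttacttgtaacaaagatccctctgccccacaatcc
*Flt1*, chr5:147726012-147726261, minus strand: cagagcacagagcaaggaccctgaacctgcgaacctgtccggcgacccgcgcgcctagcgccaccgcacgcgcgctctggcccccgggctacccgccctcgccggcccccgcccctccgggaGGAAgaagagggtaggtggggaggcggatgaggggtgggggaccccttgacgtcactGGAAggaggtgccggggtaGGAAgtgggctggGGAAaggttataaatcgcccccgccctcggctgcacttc
*Cldn5*, chr16:18776597-18776846, plus strand: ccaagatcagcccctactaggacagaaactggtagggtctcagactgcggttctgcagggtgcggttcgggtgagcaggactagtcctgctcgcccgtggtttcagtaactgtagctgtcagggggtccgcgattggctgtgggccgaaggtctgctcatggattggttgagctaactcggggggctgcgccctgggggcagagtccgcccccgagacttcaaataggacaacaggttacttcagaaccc
*Slco1a4*, chr6:141856221-141856470, minus strand: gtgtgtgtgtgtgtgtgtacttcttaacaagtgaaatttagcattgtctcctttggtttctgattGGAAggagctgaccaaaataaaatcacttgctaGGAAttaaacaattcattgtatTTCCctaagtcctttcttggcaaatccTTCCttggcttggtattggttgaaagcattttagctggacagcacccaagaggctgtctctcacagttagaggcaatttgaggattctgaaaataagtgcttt
The ETS core, searched on both strands, was found 2 times before *Tek*, 4 times before *Flt1* and 4 times before *Slco1a4*, and 0 times before *Cldn5*. Of the 8 genes with an entry in the promoter table, 7 held it, beside 93.4% of all 32851 promoters of the same length, so that these short letters separate few genes. The window of *Abcb1a* among them (chr5:8566841-8567090) does not adjoin the gene start given above and did not match a transcript start. A core for TCF/LEF factors (CTTTGAT, both strands) was in 0 of the 8 and in 3.21% of all promoters. The SOX core ACAAT, searched on both strands, was in 3 of the 8 (2 matches before *Tek*, 1 before *Emcn* and 3 before *Slco1a4*) and in 27.7% of all promoters. None of the 3 motifs holds another, and a match says only that these letters are present in the window.

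The female library held 17435300 UMIs over 3791 nuclei (median 2381), and the male library 27529730 UMIs over 4923 nuclei (median 2658). *Xist* UMIs numbered 13424 (female) and 7 (male), those of *Ddx3y* 12 and 1789, and 8 barcodes occurred in both libraries. Nuclei with markers of cerebellar granule cells, a type foreign to the ganglion, held 10.0% (female) and 0.447% (male) of a library, and cluster 16 (214 female and 101 male nuclei) was led by *Adarb2*, *Il1rapl2* and pituitary genes such as *Pomc* and *Pou1f1*. Whether some of the vessel nuclei described here came with such tissue was not tested. Nuclei were clustered without the 10 genes, and 1 of 20 clusters was named endothelial-like from 23 other markers such as *Cdh5*, *Erg* and *Tie1*, all 23 of which were at least 1.5-fold above the mean of the other clusters. This cluster held 406 nuclei, 215 female (5.67% of the library, 95% Clopper-Pearson interval 4.96 to 6.46) and 191 male (3.88%, 3.36 to 4.46), with median UMIs of 2095 and 2307. The counts below are given per 10000 UMIs of a group of nuclei. Levels of different genes are not set against each other, because the length of a gene and its introns affects its UMIs in nuclei.

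In the endothelial-like nuclei the 10 genes together made up 54.4 of every 10000 UMIs (95% Poisson interval 53.1 to 55.8), against 1.87 (1.83 to 1.91) in all other nuclei. All 10 were at least 4-fold higher in endothelial-like than in all other nuclei in both libraries. Among the 9041 genes with at least 20 UMIs in these nuclei, 398 (4.40%) passed the same limit, and the median log2 ratio was 5.03 over the 10 genes and 0.21 over all genes. Because the cluster was built from genes that go with these, the contrast describes how closely each gene follows the class and is no test. The contrast was smallest for *Mfsd2a* and *Abcb1a*. All intervals describe the error of counting UMIs or nuclei and leave out the spread between mice.

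*Pecam1*, an adhesion molecule at endothelial contacts, had 636 UMIs in female endothelial-like nuclei (10.995 per 10000) and 319 in male ones (5.23), against 0.143 and 0.0750 in all other nuclei. This is a 79.4-fold difference over both libraries, and 68.3% of all *Pecam1* UMIs came from the 406 nuclei. *Emcn*, a sialomucin of capillaries and veins, had 2.97 and 3.16, against 0.111 and 0.0650 elsewhere, 37.1-fold over both. The neurons had little of either: 0.0679 for *Pecam1* and 0.0622 for *Emcn* over both libraries.

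Among receptors of the VEGF and angiopoietin pathways, *Flt1*, a VEGF receptor that also acts as a trap for the ligand, had 12.1 per 10000 UMIs in female and 13.2 in male endothelial-like nuclei, and 28.4-fold less in all other nuclei over both libraries. *Kdr*, the main signalling receptor for VEGF-A, was sparse: 53 female and 51 male UMIs gave levels of 0.916 and 0.836, 14.8-fold above all other nuclei. *Tek*, the angiopoietin receptor also called Tie2, had 4.44 and 2.94 and a 28.7-fold difference. *Ptprb*, the phosphatase that restrains Tek, had 12.8 and 7.64 and was 61.6-fold higher than elsewhere. *Pecam1*, *Tek* and *Ptprb* were the 3 genes with clearly lower levels in the male library, a pattern taken up with the sub-clusters below.

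Among the barrier genes, *Cldn5*, the claudin that seals endothelial tight junctions, had 2.54 per 10000 UMIs in female and 4.67 in male endothelial-like nuclei, 54.7-fold above all other nuclei over both libraries. *Slco1a4*, an organic anion transporter of brain endothelium, had 5.53 and 7.44, a 44.0-fold difference. *Abcb1a*, the efflux pump P-glycoprotein, had 4.37 and 6.28, but only an 8.66-fold difference, and 19.0% of its UMIs came from the endothelial-like nuclei. *Mfsd2a*, a lipid transporter that keeps transcytosis low in brain endothelium, rested on 19 female and 39 male UMIs, levels of 0.328 and 0.640, 8.28-fold over all other nuclei. In the female library its endothelial level could not be told from the 0.286 of Schwann cell-like nuclei (log2 ratio 0.20, 95% interval -0.69 to 1.04), whereas in the male library it was above their 0.241 (log2 ratio 1.41, 0.75 to 2.06). Related genes, whose sequences were not compared here, could have shared reads with some of these genes: *Abcb1b* had 30 UMIs in endothelial-like nuclei, and *Slco1a1*, *Slco1a5* and *Slco1a6* had 0.

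**Figure D1:**
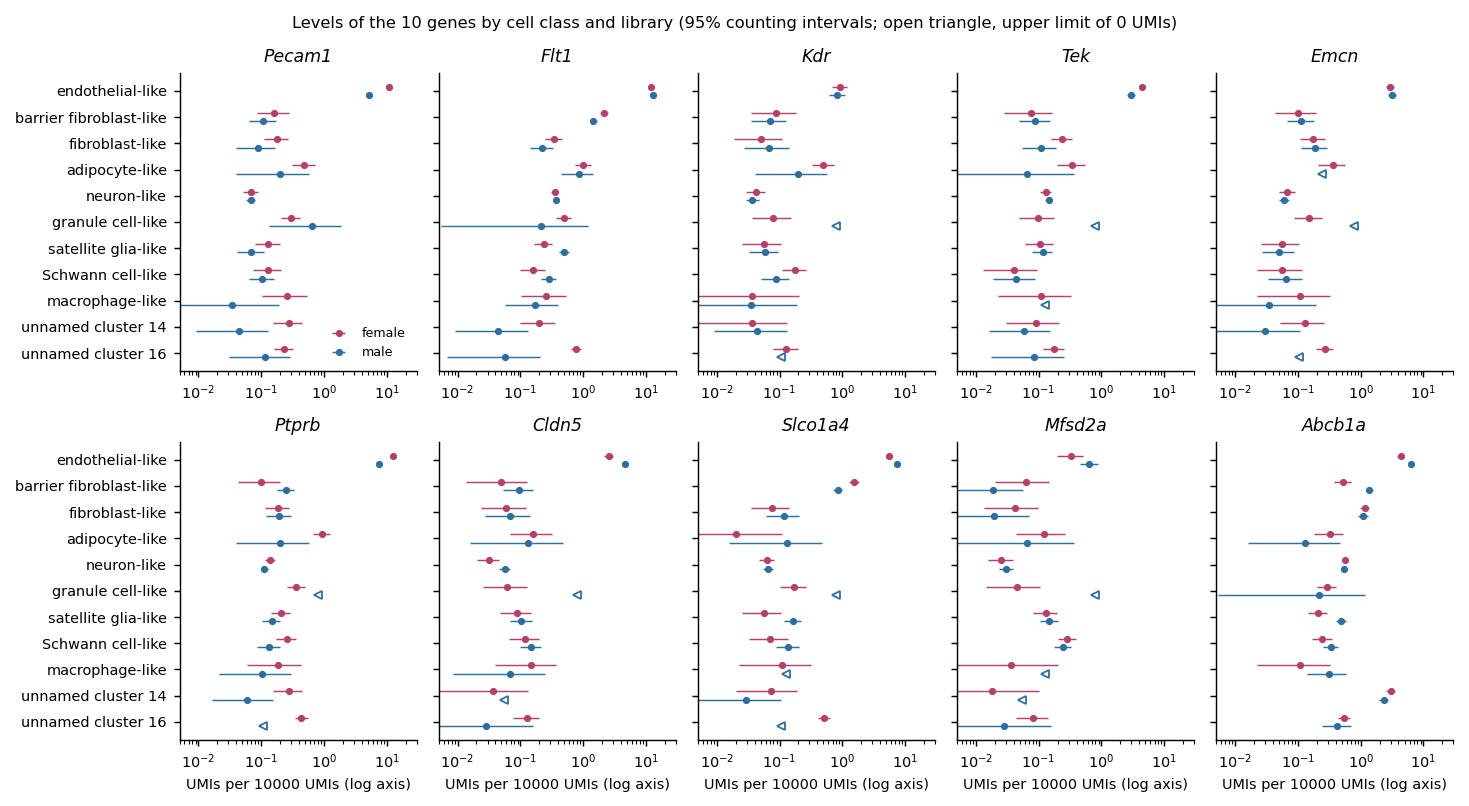
Levels of the 10 genes (UMIs per 10000 UMIs, log axis) in 11 groups of nuclei, with female and male points, 95% Poisson intervals cut at the left edge, and open triangles for the upper limit where a library had 0 UMIs. Among points with UMIs, endothelial-like nuclei sit to the right in every panel, by the least for Mfsd2a (0.328 female and 0.640 male) and Abcb1a (4.37 and 6.28). For Mfsd2a the open triangle of male granule cell-like nuclei, an upper limit, lies further right.

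Single nuclei mostly held several of the genes. At least 3 of the 10 were detected in 334 of 406 endothelial-like nuclei (82.3%, 78.2 to 85.9), and only 1 nucleus had none. After each nucleus was thinned to 1000 UMIs the share was 56.9%. Outside this class, 3.79% of 8308 nuclei had at least 3 of the genes, and 0.241% after thinning. Macrophage-like nuclei, which should lack most of these genes, had 0 of 272, with an upper 95% bound of 1.35%, at a median of 1800 UMIs. Neuron-like nuclei had 7.55% at a median of 7212 UMIs, and 1 nucleus after thinning, and unnamed cluster 16 had 32 of 214 female and 0 of 101 male nuclei, and then 0.467% and 0. Adipocyte-like nuclei stood at 9.76% (female) and 4.55% (male, 2 of 44), and at 4.07% and 0% after thinning, with 9 of the 10 genes above the level of macrophage-like nuclei. Whether vessel nuclei or free RNA gave the adipocyte-like values was not tested.

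Outside the endothelium, 4 genes had a place of their own. *Flt1* and *Slco1a4* were raised together in 1 of 2 clusters named barrier fibroblast-like, cluster 7 (526 nuclei), led by *Atp13a5*, *Slc6a20a* and *Aldh1a2*. *Flt1* had 2.29 per 10000 UMIs there in either library, and *Slco1a4* had 1.67 (female) and 1.34 (male). In the other barrier fibroblast-like cluster, 17, led by *Prg4* and *Cldn11*, the levels over both libraries were 0.231 and 0.116, and the counting intervals of the clusters did not overlap. After thinning, 17.9% of the nuclei of cluster 7 had a UMI of *Flt1* and 11.4% one of *Slco1a4*, against 1.85% and 0.369% in macrophage-like nuclei. *Pecam1* (0.148), *Cldn5* (0.0830) and *Tek* (0.0890) were not raised with them. However, *Cdh5*, a marker that named the endothelial-like class, had 1.01 in the 2 barrier fibroblast-like clusters together. It had 2.12 in endothelial-like nuclei and 0.190 in all other nuclei. The name of cluster 7 rests on 3 of 10 markers.

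*Abcb1a* was found in many classes. Its level over both libraries fell from 5.35 in endothelial-like nuclei to 2.63 (2.35 to 2.94) in an unnamed cluster, 14, led by *Col25a1* and *Slc26a7*, where the female library had 2.99 and the male library 2.34. The efflux pump gene *Abcg2* was also high in that cluster, at 4.18. Next came 1.92 in barrier fibroblast-like cluster 17, 1.26 in fibroblast-like cluster 3 and 0.938 in fibroblast-like cluster 8. Neuron-like clusters split: 9 had 0.824, 11 had 0.788, 18 had 0.722 and 6 had 0.691, which lie close together, whereas cluster 4 had 0.138 (0.115 to 0.163), no more than the 0.213 (0.110 to 0.373) of macrophage-like nuclei. After thinning, 2.05% of the nuclei of cluster 4 had a UMI of *Abcb1a*, against 7.96% in cluster 9, 22.3% in unnamed cluster 14 and 2.95% in macrophage-like nuclei. *Mfsd2a* was next highest in Schwann cell-like nuclei, with 0.298 in cluster 1 and 0.199 in cluster 5, and in satellite glia-like cluster 2 with 0.161, whose intervals overlap in that order. *Kdr* had 0.4996 in female adipocyte-like nuclei, where 25 UMIs came from 6 nuclei, and 0.196 (3 UMIs) in male ones. *Tek* had 0.196 in neuron-like cluster 4, where it was similar in the female (0.185) and male (0.202) libraries. This level lies within the intervals of adipocyte-like (0.275, 0.163 to 0.435) and fibroblast-like nuclei (0.176, 0.125 to 0.241).

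**Figure D2:**
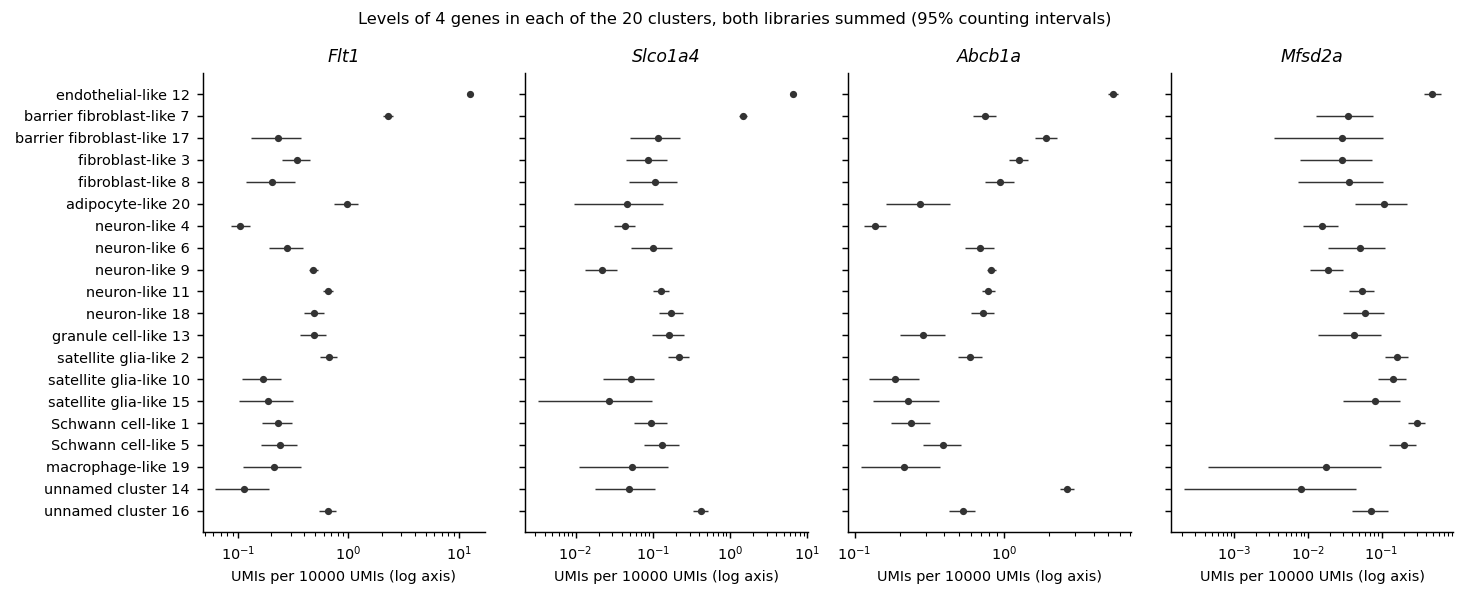
Levels of Flt1, Slco1a4, Abcb1a and Mfsd2a (UMIs per 10000 UMIs, log axis) in each of 20 clusters with both libraries summed and 95% Poisson intervals. Flt1 (2.29) and Slco1a4 (1.48) stand out in barrier fibroblast-like cluster 7, Abcb1a in unnamed cluster 14 (2.63) and cluster 17 (1.92), and Mfsd2a in Schwann cell-like cluster 1 (0.298).

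Most ligands of these receptors were higher in other classes. Of 6 VEGF and angiopoietin genes with enough UMIs (8 in the list), 1 passed the 4-fold limit in endothelial-like nuclei, *Vegfc* (2.50 per 10000 UMIs), a ligand of lymphatic growth. *Vegfa*, the ligand of both Flt1 and Kdr, had 0.202 there, 5.02 in adipocyte-like and 0.808 in satellite glia-like nuclei. *Angpt1*, which activates Tek, had 0.858 in endothelial-like nuclei, and was highest in unnamed cluster 14 (3.09) and adipocyte-like nuclei (2.97). *Angpt2*, which can oppose it, had 0.286, and 0.830 in satellite glia-like nuclei.

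Counts for lists of other barrier genes are again read beside 4.40% of all genes. Of 9 tight and adherens junction genes with enough UMIs (13 in the list) 7 passed the limit, with *Cdh5* at 2.12, *Esam* at 1.84 and *Ocln* at 0.816 per 10000 UMIs. *Cldn1*, a claudin of the perineurium and a naming marker of barrier fibroblast-like nuclei, had 0.0505 in endothelial-like nuclei. It had 1.18 in fibroblast-like and only 0.383 in barrier fibroblast-like nuclei. Among transporters 4 of 9 passed: *Abcg2*, an efflux pump (6.77), *Slc2a1*, the glucose transporter GLUT1 (2.19), *Slc7a5*, which carries large neutral amino acids (1.73), and *Slco1c1*, which carries thyroxine (1.35). All 8 genes of caveolae and permeable endothelium passed, *Cav1* at 4.80 and *Plvap*, the diaphragm protein of fenestrated vessels, at 0.278. The limit is set against all other nuclei together, and *Cav1* was nearly as high in adipocyte-like nuclei (4.42). The next class for *Plvap*, granule cell-like, had 0.0766. Of 9 genes tied to Wnt signalling at the brain barrier 6 passed, *Lef1* at 4.22 and *Sox17* at 1.57. *Cdh5*, *Esam* and *Sox17* had also served to name the class. Receptors for uptake gave 0 of 6, with *Tfrc*, the transferrin receptor, at 0.286 against 0.432 in all other nuclei, *Insr*, the insulin receptor, at 4.33 against 1.27 and *Scarb1*, a lipoprotein receptor, at 0.951 against 0.307. Over the 20 clusters, the genes whose log2 level followed the summed 10 genes most closely were *Slco1c1* (Pearson r = 0.94), *C130074G19Rik* (0.93), *Adgrf5* (0.91), *Eln* (0.90), *Klhl4* (0.90), *Podxl* (0.90), *Cxcl12* (0.89) and *Dipk2b* (0.89), as a description over clusters that share libraries and depth. *Adgrf5* and *Podxl* were also among the markers that named the class.

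Within the endothelial-like nuclei the 10 genes did not keep together. Clustering these nuclei without them gave 8 sub-clusters. In 2 of these, 1 (84 nuclei, 77 female and 7 male) and 7 (36 nuclei, 19 female and 17 male), a list of arterial genes had a mean log2 fold above 0, with 3 and 2 of its 9 genes at least 1.5-fold up. *Eln*, the elastin of artery walls, had 27.1 per 10000 UMIs in sub-cluster 1 and 10.1 in sub-cluster 7, *Bmx* 8.70 and 3.93, and *Gja5*, an arterial connexin, 1.65 and 1.35. *Eln* is not in that list. With these 2 sub-clusters summed, 2 of 8 list genes with enough UMIs, *Gja5* and *Bmx*, were at least 4-fold above the other sub-clusters. Over the 8 genes the median log2 ratio was 0.56, with *Hey1* (-0.94) and *Alpl* (-0.48) below 0. The venous-list gene *Selp* was also higher there (2.67). Sub-cluster 8 had 2 arterial genes up too, at a mean log2 fold of -0.12. Sub-cluster 6 (38 nuclei) had 3 of 9 venous genes up, with *Il1r1* at 18.9 and *Vwf* at 8.14. Sub-cluster 3 (53 nuclei) was led by *Lnx1*, *Pparg* and *Cd36*. *Prox1*, the defining gene of lymphatic vessels, had 9 UMIs in all, and no sub-cluster was led by lymphatic genes.

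The transporters differed widely among the sub-clusters. *Slco1a4* ran from 0.0848 per 10000 UMIs in sub-cluster 1 and 0.492 in 7, through 2.14 in 3, to 13.8 in 5 and 24.0 in the venous-list sub-cluster 6. *Abcb1a* took the same path, with 0.254, 0.369, 2.45, 10.5 and 11.7. *Lef1*, a transcription factor of the Wnt pathway, had 0, 0.615, 1.94, 8.80 and 12.0 in these 5. Sub-clusters 2, 4 and 8 lay between 3 and 5 for all 3 of these genes. *Pecam1* ran the other way, with 18.1 in sub-cluster 1 and 12.3 in 7 against 3.33 to 6.44 in the other 6. *Flt1* and *Emcn* peaked in sub-cluster 5 (27.7 and 8.56). Sub-cluster 3 had little *Cldn5* (1.02) and *Slco1a4* but kept *Kdr* (1.63) and *Emcn* (4.90).

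In some sub-clusters, genes from the marker lists of other cells were up. In sub-cluster 8 (35 nuclei, 5 female and 30 male) 10 of 12 mural cell markers were up, among them *Rgs5* (8.40) and *Notch3* (3.16), and their summed level was 25.7 per 10000 UMIs against 0.848 to 5.19 in the other 7. It had 7 of 13 Schwann cell markers up as well. Its median was 5154 UMIs, above the 1734 to 3327 of the others, and its level of *Cldn5* was 7.96, against 0.594 to 5.88 in the others. Sub-cluster 4 was led by genes that include *Trhde* and *Caln1*, with 3 of 11 granule cell and 5 of 13 Schwann cell markers up, and sub-cluster 2 (57 of 62 nuclei male) had 4 of 12 neuron markers up. In sub-cluster 3, 2 of 11 adipocyte markers were up, and the summed level of that list was 9.89 against 1.57 to 3.69 in the other 7. Whether these nuclei were joined to a second nucleus or took up free RNA was not tested.

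**Figure D3:**
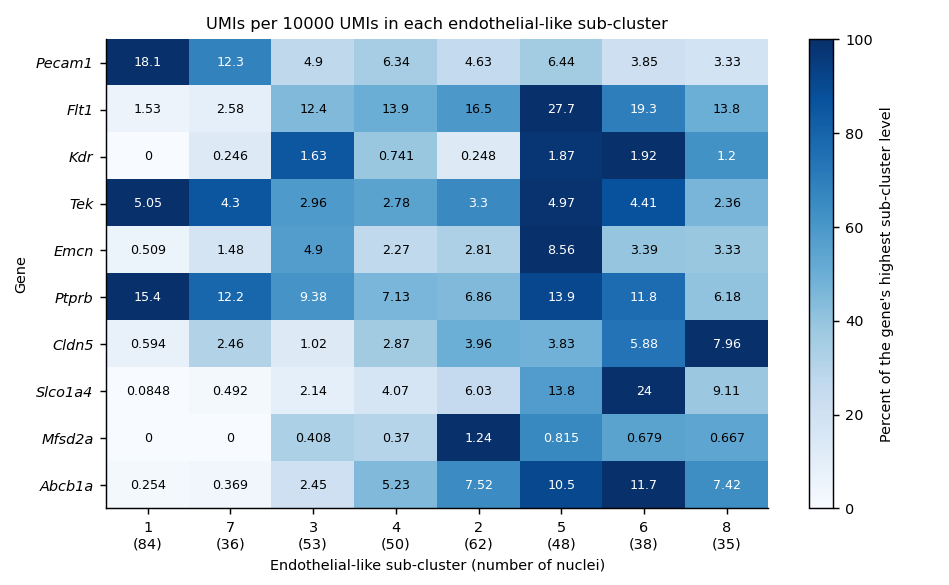
UMIs per 10000 UMIs (numbers) of the 10 genes in the 8 endothelial-like sub-clusters, both libraries summed, shaded by percent of each gene's highest level, with sub-clusters 1 and 7, in which the arterial list was raised, at the left. Pecam1 is darkest at the left (18.1), while Slco1a4 (24.0) and Abcb1a (11.7) are darkest in sub-cluster 6.

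Sub-clusters 1 and 7 were then set together against the other 6, a grouping chosen after the values had been seen. They held 120 nuclei, 96 female (44.7% of female endothelial-like nuclei, 37.9 to 51.6) and 24 male (12.6%, 8.22 to 18.1). Sub-clusters 1, 2, 5 and 8 each came mostly from 1 library, and whether the library shaped the sub-clusters was not tested. Of the 10 genes 7 were at least 4-fold lower in the arterial-list sub-clusters, beside 3.04% of 9041 genes (275), and the median log2 ratio was -2.77 for the 10 and -0.08 for all genes. *Slco1a4* had 6 UMIs there (0.189 per 10000) against 768 (8.82), 46.6-fold less. *Abcb1a* had 9 UMIs (0.284) against 7.20, 25.4-fold less, and *Flt1* 1.80 against 16.6, 9.22-fold less. *Emcn* had 0.757 against 3.91, 5.17-fold less. *Kdr* had 2 UMIs (log2 ratio -4.21, -7.28 to -2.32), and *Mfsd2a* had 0 UMIs against 58, at least 7.04-fold lower when 3 UMIs are set as the floor.

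*Cldn5* was the gene nearest to the limit, with 1.07 against 4.57, 4.26-fold less. It was 3.69-fold less in the female library alone, 3.85-fold in the male library alone and 3.16-fold without the sub-cluster with mural markers, so that the count was 6 in each of these. In the male library *Kdr* and *Mfsd2a* had 0 UMIs in the 24 nuclei, at least 2.38-fold and 1.82-fold lower at the floor of 3 UMIs, so that a 4-fold difference of these genes is not shown there and the male count is 4 when 0 is set to the floor. *Slco1a4* and *Abcb1a* had 1 UMI each in the 24 male nuclei (log2 ratios -5.99, -11.3 to -3.50, and -5.74, -11.0 to -3.25). The other 3 genes were not lower in this contrast. *Pecam1* had 16.6 in the arterial-list sub-clusters against 4.92 (log2 ratio 1.75, 1.57 to 1.94), *Ptprb* 14.5 against 8.53 (0.77, 0.60 to 0.94) and *Tek* 4.86 against 3.24 (0.59, 0.29 to 0.87), although for *Tek* the interval of the male library included 0 (0.34, -0.30 to 0.94). *Cdh5*, a junction gene of all endothelium, had 2.02 against 2.16, with an interval from -0.53 to 0.32 on the log2 scale, although the male library alone had 0.935 against 2.11 (-1.18, -2.52 to -0.09). *Cdh5* does not stand for all 23 markers that named the class. Their mean log2 fold was -0.59 in sub-cluster 1 and -0.65 in sub-cluster 7, against -0.41 to 0.68 in the others. Their summed levels, 82.5 and 68.6, lay within the 55.3 to 107 of the others.

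The lists of other barrier genes were not lower as a whole. In this contrast 4 of 9 other transporters, 2 of 9 Wnt genes (*Lef1* and *Apcdd1*) and 0 of 9 junction genes were at least 4-fold lower, with median log2 ratios of -1.46, -0.05 and -0.05, and 0 of each were 4-fold higher. Among those that were lower, *Lef1* had 5 UMIs in the arterial-list sub-clusters, 0.158 per 10000 against 5.69, *Slc7a5* 0.126 against 2.32, *Slc2a1* 0.252 against 2.89, *Slco1c1* 0.158 against 1.79 and *Abcg2* 1.23 against 8.79. *Vwf* had 3.60 against 3.48. *Lef1* had 5.18 in the other male nuclei and 0 UMIs in the male arterial-list nuclei, at least 12.9-fold lower. Each of the 5 genes before *Vwf* was over 4-fold lower in either library, with 0 to 10 UMIs in the male arterial-list nuclei.

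**Figure D4:**
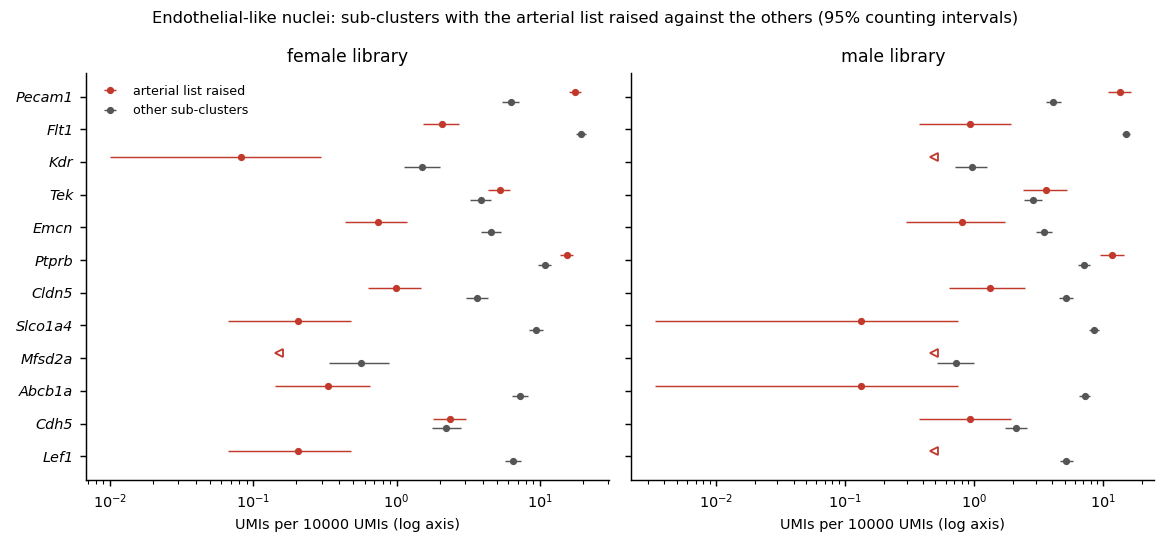
Levels (UMIs per 10000 UMIs, log axis) of the 10 genes, Cdh5 and Lef1 in the arterial-list sub-clusters (red) and the other endothelial-like sub-clusters (grey), for the female and the male library, with 95% Poisson intervals and open triangles for the upper limit at 0 UMIs. Pecam1 (17.6 against 6.25 female, 13.4 against 4.09 male) and Slco1a4 (0.206 against 9.37, 0.134 against 8.47) lie on opposite sides in both libraries. The male Slco1a4 value of 0.134 rests on 1 UMI.

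The last comparison set the male against the female library, as the study compared the sexes. Over all endothelial-like nuclei the summed 10 genes had 56.9 (female) and 52.0 (male) per 10000 UMIs, a log2 ratio of -0.13 (-0.20 to -0.06), beside a median of 0.02 over all genes. Single genes spread widely around it. The male library was lower for *Pecam1* (log2 -1.07, -1.27 to -0.88), *Ptprb* (-0.74) and *Tek* (-0.60), and higher for *Cldn5* (0.88, 0.59 to 1.18), *Mfsd2a* (0.96, 0.14 to 1.83), *Abcb1a* (0.52) and *Slco1a4* (0.43). *Flt1* (0.13, -0.02 to 0.27), *Emcn* (0.09, -0.21 to 0.39) and *Kdr* (-0.13, -0.72 to 0.45) had intervals that include 0.

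Most of these genes also separated the sub-clusters, and the libraries held unequal shares of them. Without the arterial-list sub-clusters the intervals of the transporters included 0: *Slco1a4* had 9.37 in 119 female and 8.47 in 167 male nuclei (log2 -0.15, -0.36 to 0.07) and *Abcb1a* 7.29 and 7.14 (-0.029, -0.26 to 0.21). *Mfsd2a* stood at 0.37 (-0.46 to 1.24). *Cldn5* stayed higher in the male library (0.49, 0.18 to 0.81), but when sub-cluster 8, with its mural markers and 30 male nuclei, was left out as well it was 3.52 and 3.27 (-0.11, -0.50 to 0.29). *Pecam1* remained lower in the male library (-0.61, and -0.49 without sub-cluster 8), as did *Ptprb* (-0.62 and -0.58) and *Tek* (-0.44). *Flt1* (-0.37), *Emcn* (-0.39) and *Kdr* (-0.67) were then lower as well, and all these intervals lay below 0. The remaining nuclei were still unequally spread, with 44 female and 4 male nuclei in sub-cluster 5, where *Flt1* and *Emcn* were highest, and 5 and 57 in sub-cluster 2, so that sub-cluster and library cannot be told apart. When sub-cluster 8 was also left out the interval of *Tek* included 0 (-0.28, -0.67 to 0.11). In the arterial-list sub-clusters, *Pecam1* (log2 -0.40, -0.73 to -0.08) and *Ptprb* (-0.39, -0.74 to -0.05) were lower in the 24 male than in the 96 female nuclei. These nuclei were unequally spread as well, with 77 female and 7 male in sub-cluster 1 and 19 and 17 in sub-cluster 7. *Pecam1* was higher in sub-cluster 1 than in 7, so that sub-cluster and library cannot be told apart there either. Without both kinds of sub-cluster the summed genes stood at -0.31 (-0.40 to -0.22). Outside the endothelial-like class, the male library was also lower for *Pecam1* (-0.93, -1.21 to -0.65), *Ptprb* (-0.85), *Kdr* (-0.80), *Emcn* (-0.77), *Slco1a4* (-0.55) and *Flt1* (-0.15). In those nuclei *Tek* (-0.09), *Cldn5* (0.13) and *Mfsd2a* (-0.32) had intervals that include 0, and *Abcb1a* was higher (0.12). The median over all genes there was -0.05. With 1 pool of each sex, none of these differences has a replicate check.

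**Figure D5:**
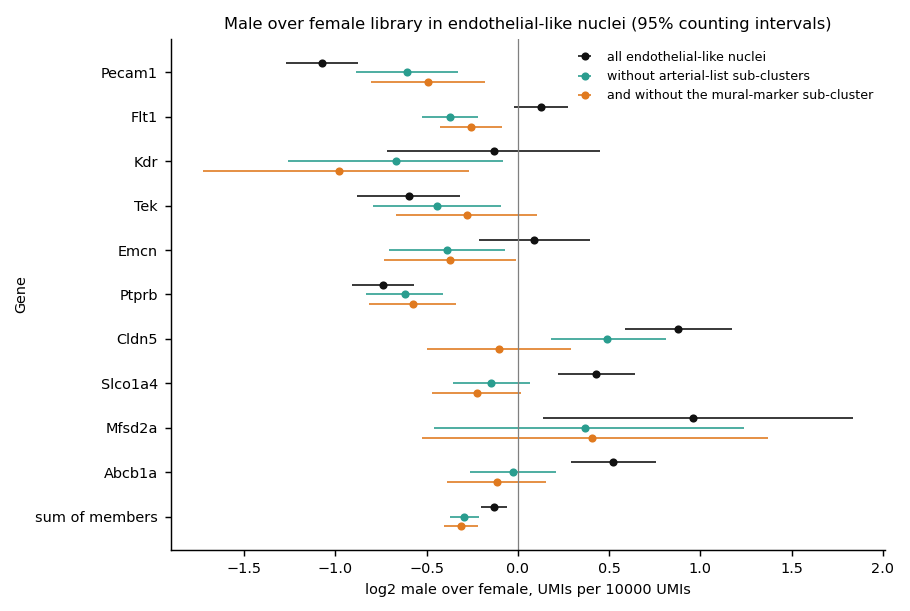
Log2 ratio of male over female UMIs per 10000 UMIs for the 10 genes and their sum, with 95% counting intervals, in all endothelial-like nuclei (black), without the arterial-list sub-clusters (green), and without these and the sub-cluster with mural markers (orange). Slco1a4 (0.43 to -0.22) and Cldn5 (0.88 to -0.11) cross 0, while Pecam1 (-1.07 to -0.49) and Ptprb (-0.74 to -0.58) stay below it.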

How the data were processed

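The authors made the deposited counts, whole UMI counts per gene and nucleus, with Cell Ranger 7.1.0 on mm10 and counted reads in introns. Barcodes had been filtered with DIEM, which scores debris, and by their genes and UMIs, and the libraries had been joined after thinning to similar depths of mapped reads. No source used here says how overlapping genes shared reads. Gene coordinates are from GENCODE on the same build. Each nucleus was given a sex because the number of barcodes in its library equals that stated for the sex. The 10 genes and all gene lists were chosen with earlier results of these data known.

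Counts of a nucleus were scaled to the median depth and log2-transformed after 1 was added, and each gene was set to mean 0 and SD 1. The 10 genes, the sex-linked genes and 115 genes the study listed between the sexes were left out. Louvain clustering on 10 principal components with 243 neighbours gave 20 clusters, the number the study found, at a resolution of 3.4 (python-igraph 0.11.9, scikit-learn 1.9.0, Scanpy 1.11.5). A cluster took the name of the marker list with the highest mean log2 fold (0.05 added to its level and to the other clusters' mean), if this was at least 0.5 and 3 markers of at least 10 UMIs reached 1.5-fold, unless another list had more genes among its 10 leading genes. The limit of 0.5 was set after the clusters had been seen. Endothelial-like nuclei were clustered again with 15 neighbours.

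UMIs were summed, and intervals are 95% exact Poisson, binomial or Clopper-Pearson intervals (SciPy 1.17.1). Fold calls need 4-fold with 0.5 UMIs added to both sums and at least 20 UMIs. They were also run on simulated Poisson counts with known folds, which hold counting error alone and do not check the clusters or the spread between mice. Nuclei are not replicates, so no p-value was computed. The genes named are the 10, those of the context lists past the limit (the most abundant 6 of a list), a few chosen whatever their values, and the 8 with the most similar pattern among genes of at least 200 UMIs. The leading genes of clusters, *Insr*, *Scarb1* and the arterial, venous and mural genes of sub-clusters were named after their values were seen. Thinning to 1000 UMIs left out 19 female and 0 male nuclei. The study removed possible doublets before deposit. Scrublet marked 0 female nuclei and 1 male nucleus, too few to rely on, and no nuclei were removed. Alternatives changed the clustering, depth, weights and scaling.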

Additional observations from a re-analysis of the deposited data

How the results depend on the processing

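The summed level in endothelial-like nuclei was 54.4 per 10000 UMIs, 56.9 (female library alone), 52.0 (male alone), 52.9 after thinning to 1000 UMIs and 59.6 without the arterial-list sub-clusters. Its log2 ratio over all other nuclei was 4.86. It was 4.78 in the female library alone, 4.67 by median of ratios and 4.99 without the arterial-list sub-clusters. Against single classes it was 5.12 (Schwann cell-like), 3.88 (adipocyte-like), 3.57 (barrier fibroblast-like), 4.53 (fibroblast-like), 4.75 (granule cell-like), 5.70 (macrophage-like), 5.19 (neuron-like), 5.07 (satellite glia-like), 4.04 (unnamed cluster 14) and 4.27 (unnamed cluster 16). The number of genes past 4-fold was 10 under the 3 other clusterings and 8 at 8-fold, without *Mfsd2a* and *Abcb1a*.

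The male over female ratio of the summed genes, log2 -0.13, was -0.23 after thinning, -0.21 without *Flt1*, the gene with the most UMIs, and -0.29 without the arterial-list sub-clusters. The median over the 10 genes had the opposite sign, 0.11. Without the arterial-list sub-clusters the sign turned for *Flt1* (-0.37), *Emcn* (-0.39), *Slco1a4* (-0.15) and *Abcb1a* (-0.029). Without the mural-marker sub-cluster as well, the values were -0.26, -0.37, -0.22 and -0.12, and *Cldn5* turned to -0.11. These sub-cluster alternatives were chosen after seeing the data.

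No paired analysis was possible because each sex has 1 library. *Kdr* and *Mfsd2a*, with 104 and 58 UMIs in endothelial-like nuclei, are limited by depth. Counting errors do not cover differences between mice.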
